A study of Mus musculus with 6 samples.

Results

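The 31 genes described here encode enzymes, subunits, carriers and regulators. They act in the entry of pyruvate into mitochondria, the tricarboxylic acid (TCA) cycle and the malate-aspartate shuttle. They were listed by pathway and not by the size of their change, but with earlier results of these data known. Each was found on the array through the RefSeq accession of its probes. A probe was used where all 3 arrays of N1ICD-*mdx* or of *mdx* muscle had it well above background, and the brightest such probe stood for the gene. All 31 passed that filter, out of 13705 genes tested, and all 31 were above background on every array in both groups. RNA came from the tibialis anterior (TA) muscles of 3 N1ICD-*mdx* mice and 3 *mdx* mice on a mixed 129 and C57BL/6 background, 9 months old per the labels and kept on regular chow. All mice carried the *mdx* mutation, which removes dystrophin from muscle fibers. N1ICD-*mdx* mice in addition expressed the intracellular domain of Notch1 from the Rosa26 locus once MCK-Cre, which is active in post-fusion fibers, had recombined it. Whether the *mdx* mice carried either allele without the other is not given in the sources used here. Each of 3 Agilent two-color arrays held 1 N1ICD-*mdx* muscle in Cy5 and 1 *mdx* muscle in Cy3, so dye and genotype cannot be told apart. The labels call the muscles biological replicates without naming the animals. The p-values measure only the spread between these 3 arrays, and limma moderates the variance of each gene toward that of all genes. Standard errors below are moderated in the same way, so they do not follow from the SD of the 3 ratios alone. The signal of *Notch1* itself had a log2 ratio of -0.12, but where its probe lies relative to the transgene was not determined, so this value checks nothing. A value below is either the normalized log2 intensity of a muscle or the log2 ratio of N1ICD-*mdx* over *mdx* muscle on an array.

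Pyruvate made by glycolysis crosses the inner mitochondrial membrane through a carrier and is turned into acetyl-CoA by the pyruvate dehydrogenase complex. Kinases switch that complex off by phosphorylation and phosphatases switch it on again. The TCA cycle then oxidizes acetyl-CoA and loads the electron carriers that drive ATP synthesis, and the malate-aspartate shuttle brings in reducing power from the cytosol. Skeletal muscle, above all its oxidative fibers, depends on these steps during sustained work.

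Most of these genes were brighter in N1ICD-*mdx* muscles, against *mdx* muscles, though no gene passed the test across all genes. Of the 31, 25 had a positive and 6 a negative mean log2 ratio, that is 80.6% positive, against 49.1% of all genes tested. Their median log2 ratio was 0.19, beside 0.00 for all genes and 0.00 for equally bright genes. The latter lay between 11.04 and 13.47 in mean log2 intensity. *Mdh2*, *Cs*, *Mpc1*, *Idh3g*, *Idh3b*, *Sucla2*, *Mpc2* and *Ogdh* were brighter than that. Less the median of the 400 genes nearest to each in brightness, the median of the 31 was 0.15. Without replicate 2 the median of the 31 ratios was 0.06, and 18 of the 31 lay above the median of all genes. *Mdh2*, *Mdh1*, *Mpc1*, *Dlat*, *Cs* and *Sucla2* had the largest ratios, from 0.77 to 0.49. The lowest ratio was -0.18, that of *Idh2*. The cycle enzymes, the shuttle, the dehydrogenase complex and the carrier had medians of 0.20, 0.37, 0.30 and 0.33, with *Mdh2* counted among the cycle enzymes. The kinases, phosphatases, and anaplerotic and malic enzymes had medians of 0.02, -0.11 and 0.02. Without replicate 2 the first 4 medians were 0.14, 0.13, 0.12 and 0.22, and the last 3 were -0.04, -0.12 and -0.25. Without replicate 1 the cycle enzymes had 0.31, the shuttle 0.56, the kinases 0.08 and the anaplerotic and malic enzymes 0.24. Without replicate 3 the kinases had 0.05 and the anaplerotic and malic enzymes 0.13, and with array quality weights the complex had 0.09, the kinases 0.05 and the anaplerotic and malic enzymes -0.18. With arrays centered on their median in place of loess, the ratios of all genes shifted to a median of -0.18, and 16 of the 31 were positive while 23 lay above that median.

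In limma with Benjamini-Hochberg adjustment over all genes, 0 of the 31 had an adjusted p under 0.05, as did 0% of all genes, and the smallest adjusted p of any gene was 0.253. An unadjusted p under 0.05 with a positive ratio was reached by 8 of the 31 (25.8%), against 4.06% of all genes. With a negative ratio it was reached by 0 of the 31, against 2.44%. The 8 were *Mdh2*, *Sucla2*, *Mpc1*, *Mdh1*, *Cs*, *Dlst*, *Idh3a* and *Pdha1*, each with an adjusted p = 0.703 in limma. Of the 31, 1 gene, *Mdh2*, also reached 1.5-fold (3.23%), and 0 did so in the negative direction, against 0.474% of all genes in each direction. The ratio was positive on every array for 11 of the 31 (35.5%), against 17.7% of all genes, and negative on every array for 1, *Pdp1*, against 16.4%. The 3 N1ICD-*mdx* muscles lay above all 3 *mdx* muscles for 10 of the 31 (32.3%), against 7.68% of all genes, and below them for 0 of the 31, against 6.25%. Without replicate 2 the unadjusted p under 0.05 was reached by 9 in the positive and 4 in the negative direction (*Pdk4*, *Pdp1*, *Pc* and *Me1*), against 8.36% and 7.09% of all genes. Without replicate 3 these counts were 5 and 1, against 1.15% and 1.01% of all genes. At 1.5-fold with a positive ratio there were 4 of the 31 without replicate 1, 1 without replicate 2 and 3 without replicate 3, against 0.73%, 0.89% and 0.693% of all genes. Without replicate 2, 12 of the 31 were positive on both remaining arrays, near the 31.7% of all genes, and 5 were negative on both, against 30.6%.

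**Figure D1:**
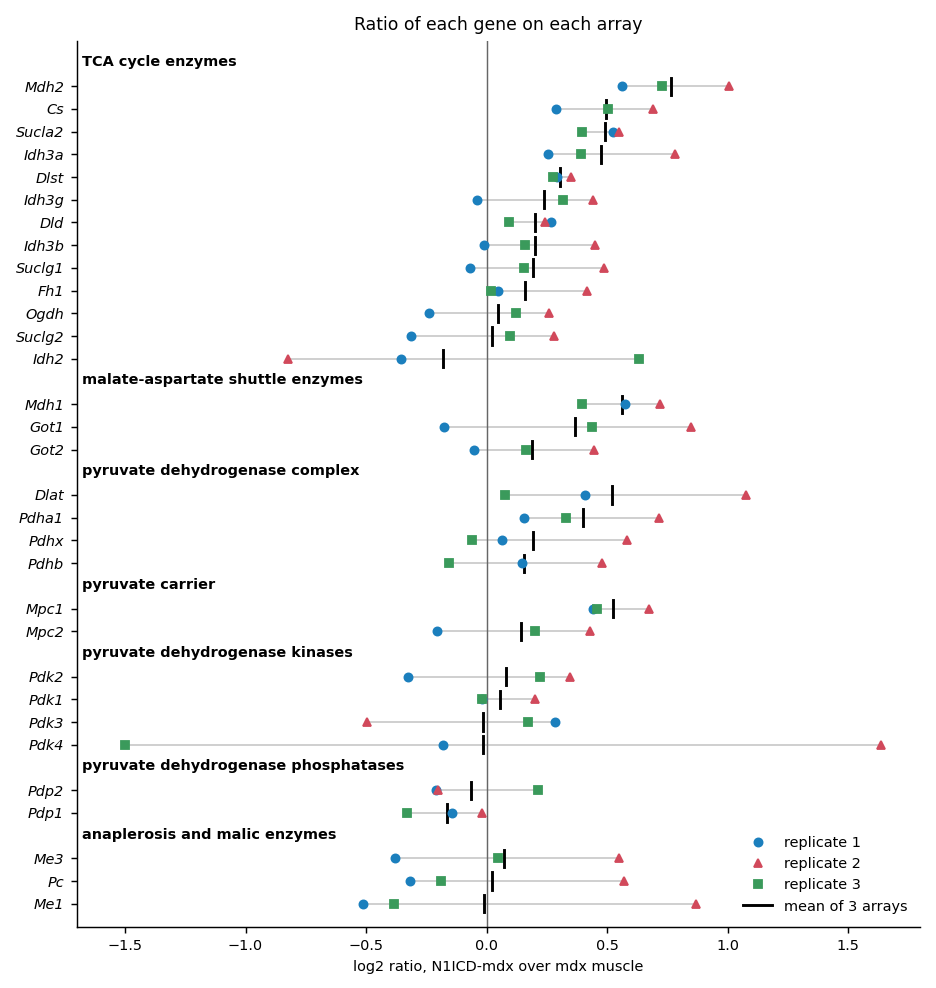
Log2 ratio of N1ICD-*mdx* over *mdx* muscle (x axis) for each of the 31 genes (rows, by role), with 1 symbol per array and a black bar at the mean of the 3 arrays. Replicate 2 gave the highest ratio for 27 of the 31 genes, and *Pdk4* spread most widely, between -1.50 and 1.63.

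The 3 arrays did not carry these genes equally. Replicate 1 had a positive ratio for 14 of the 31, replicate 2 for 27 and replicate 3 for 24. On replicates 1, 2 and 3 the 31 had medians of -0.02, 0.48 and 0.17, while all genes had a median that rounds to 0.00 on each. The 1358 equally bright genes, chosen by their intensity, had medians of -0.05, 0.11 and -0.03. Replicate 2 gave the highest of the 3 ratios for 27 of the 31 genes. The median of the 31 was 0.30 without replicate 1 and 0.22 without replicate 3. Among the *mdx* muscles, replicate 2 had the lowest intensity for 26 of the 31 genes, against 43.1% of all genes and 51.0% of equally bright genes.

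Other RNA moved on the same array. Of 14 measured macrophage markers, of 15 listed, 13 had a negative mean ratio, with a median of -0.13, -1.95 and -0.11 on replicates 1, 2 and 3. Their summed linear intensity was 37400, 19900 and 22800 in N1ICD-*mdx* muscles 1 to 3, against 39400, 75100 and 25000 in *mdx* muscles 1 to 3. The *mdx* muscle of replicate 2 thus held the highest macrophage signal of the 6 muscles and, for most of the 31 genes, the lowest intensity of the 3 *mdx* muscles. All 12 markers of muscle fibers, the labeled tissue, were measured, and 11 had a positive ratio, with a median of 0.32, 0.62 and 0.32. Their summed intensity was 798000, 910000 and 808000 in N1ICD-*mdx* muscles 1 to 3, against 607000, 545000 and 611000 in *mdx* muscles 1 to 3, with no overlap between the groups. Most of this sum came from the 6 markers over 16 in mean log2 intensity, where all genes had a median ratio of 0.55. It is therefore no measure of fiber content. Among the dimmer markers, *Ckm*, *Des*, *Atp2a1* and *Mylpf* had ratios of 0.14, 0.10, 0.08 and -0.15. *Mb*, with 0.77, and *Myh2* had larger ratios than these. The median of the 31 genes lay below that of the fiber markers by 0.34, 0.14 and 0.16 on replicates 1, 2 and 3. Of 9 measured adipocyte markers, of 10 listed, 7 had a positive ratio, with medians of -0.32, 0.52 and 0.70. Their sum was 47900, 61300 and 75000 in N1ICD-*mdx* muscles against 53500, 38200 and 36000 in *mdx* muscles. That sum is mostly *Car3* and *Fabp4*, with mean log2 intensities of 14.54 and 13.96, beside 7.98 for *Adipoq*, so it is no measure of adipocyte content. *Lep*, the adipocyte hormone leptin, stood above background on 1 array in N1ICD-*mdx* and 0 in *mdx* muscle. The median of the 10 fibroblast markers was 0.62, -0.64 and 0.05. That of the 8 endothelial markers was 0.28, -0.19 and 0.21. Sums of the fibroblast list ran between 78500 and 139000 in N1ICD-*mdx* and 80800 and 105000 in *mdx* muscles, and those of the endothelial list between 4040 and 5560 in N1ICD-*mdx* and 4620 and 5650 in *mdx* muscles. Of 5 cardiac or smooth muscle markers 4 were measured, with sums of 1870 to 2330 in N1ICD-*mdx* and 2020 to 2770 in *mdx* muscles. In RNA of whole muscle, a change in the share of fibers and a change in RNA per fiber cannot be told apart, and the part of these cell types in the ratios of the 31 genes was not tested.

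**Figure D2:**
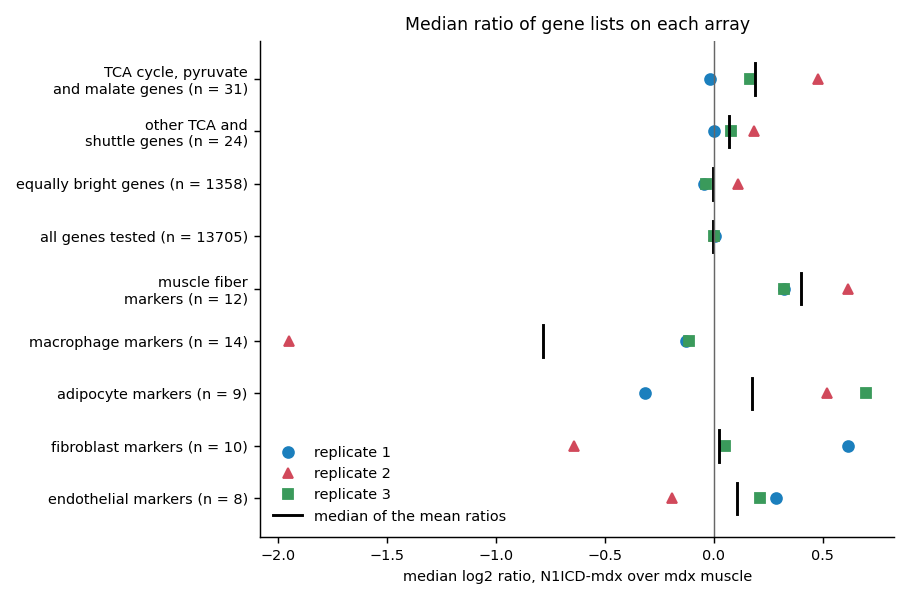
Median log2 ratio of N1ICD-*mdx* over *mdx* muscle (x axis) for gene lists (rows, n measured genes), with 1 symbol per array and a bar at the median of the mean ratios. On replicate 2 the 31 genes had a median of 0.48 and the macrophage markers one of -1.95.

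These genes were bright, and the brightest genes of the array had positive ratios as a whole. The mean log2 intensity of the 31 ran from 6.86 to 15.64 with a median of 12.43, beside a median of 8.12 for all genes. The 1358 other genes between 11.04 and 13.47, the middle part of that range, had a median log2 ratio of 0.00, and 49.6% of them were positive. Of these equally bright genes 6.04% reached an unadjusted p under 0.05 with a positive ratio, and 5.96% had N1ICD-*mdx* muscles all above *mdx* muscles. Above that range the median ratio of all genes grew, to 0.07 for 238 genes between 13 and 14, 0.15 for 150 genes between 14 and 15, 0.34 for 94 genes between 15 and 16 and 0.55 for 25 genes between 16 and 17. The last bin held none of the 31 but 6 of the 12 fiber markers, with ratios of 0.92, 0.73, 0.64, 0.53, 0.27 and 0.25. The fiber list median of 0.40 covers all 12 markers, dimmer ones included, and so cannot be set beside the median of that bin. In the 3 bins before the last the median of the 31 genes was 0.28 (8 genes), 0.49 (3 genes) and 0.77 (*Mdh2* alone). Each gene was also set beside the 400 genes nearest to it in brightness. Of the 31, 27 lay above the median of their 400 neighbors, 15 above the upper quartile and 2, *Idh2* and *Pdp1*, below the lower quartile. The median of the 31 ratios less those neighbor medians was 0.15.

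**Figure D3:**
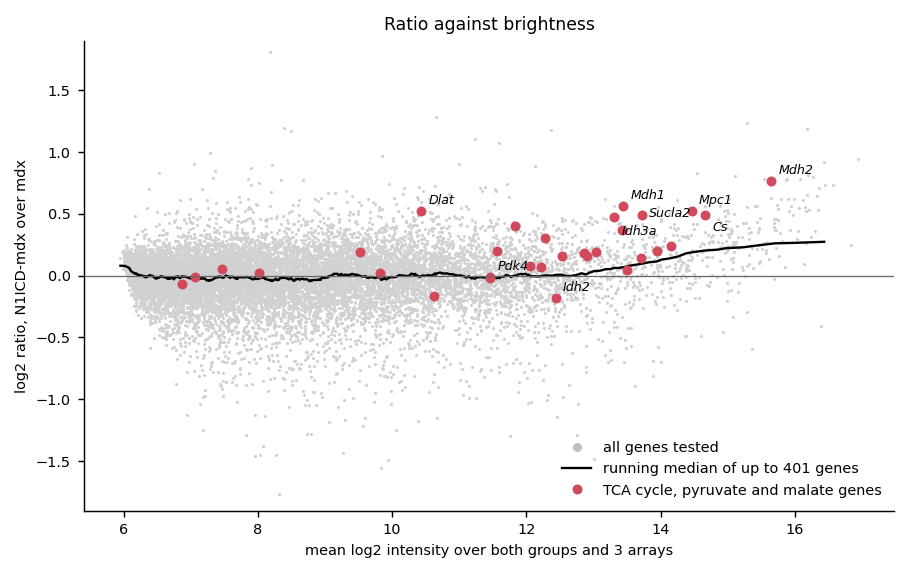
Log2 ratio of N1ICD-*mdx* over *mdx* muscle (y axis) against mean log2 intensity (x axis), with all 13705 genes in gray, a running median in black and the 31 genes in red. The running median bends upward among the brightest genes, and 27 of the 31 genes lie above the median of the genes nearest in brightness.

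*Mdh2* (NM_008617), the mitochondrial malate dehydrogenase that closes the TCA cycle and also serves the shuttle, had the highest ratio of the 31 and ranked 33 among 13705 genes. Its log2 intensity was 15.97, 16.11 and 15.97 in N1ICD-*mdx* muscles 1 to 3, against 15.41, 15.11 and 15.24 in *mdx* muscles 1 to 3. All N1ICD-*mdx* muscles lay above all *mdx* muscles. The log2 ratio was 0.77 (standard error 0.12, n = 3 arrays), a 1.70-fold difference, with an adjusted p = 0.703 in limma. It was 0.87, 0.65 and 0.78 without replicates 1, 2 and 3, and 0.58 less the median of its 400 neighbors, most of which were dimmer.

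*Cs* (NM_026444) encodes citrate synthase, which joins acetyl-CoA to oxaloacetate and is widely used as a measure of mitochondrial content. Its log2 intensity was 14.84, 14.95 and 14.98 in N1ICD-*mdx* muscles, against 14.55, 14.25 and 14.48 in *mdx* muscles. The groups did not overlap, and the log2 ratio was 0.49 (standard error 0.11), or 0.34 less its neighbors. *Sucla2* (NM_011506), the ADP-forming β subunit of succinyl-CoA synthetase, had 14.02, 13.90 and 13.98 in N1ICD-*mdx* muscles, against 13.50, 13.35 and 13.59 in *mdx* muscles. Its ratios of 0.52, 0.55 and 0.40 were among the most even of the 31, with a mean of 0.49 (standard error 0.09). The partners of *Sucla2* had lower ratios. *Suclg1*, the shared α subunit, had a mean ratio of 0.19, which was 0.32 without replicate 1 and 0.04 without replicate 2, and *Suclg2*, the GDP-forming β subunit, one of 0.02 at a mean log2 intensity of 8.02. *Sucla2* exceeded *Suclg2* by 0.84, 0.27 and 0.30 on the 3 arrays. An exact two-sided sign-flip test over 3 arrays cannot give a p below 0.25, so differences between partners are given as values. Of 9 pairs compared, the difference changed sign between arrays for *Mdh2* less *Mdh1* (-0.01, 0.29 and 0.33) and for *Got1* less *Got2* (-0.13, 0.40 and 0.27).

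*Idh3a* (NM_029573), the catalytic subunit of the NAD-dependent isocitrate dehydrogenase, had log2 intensities of 13.45, 13.58 and 13.60 in N1ICD-*mdx* muscles, against 13.19, 12.80 and 13.21 in *mdx* muscles. The groups did not overlap, and the log2 ratio was 0.48 (standard error 0.13), or 0.32 without replicate 2. *Idh3g*, another subunit of that enzyme, had 14.12, 14.22 and 14.47 in N1ICD-*mdx* muscles, against 14.16, 13.77 and 14.15 in *mdx* muscles. Here the groups overlapped, and the mean ratio of 0.24 (standard error 0.13) was 0.38 without replicate 1 and 0.14 without replicate 2. The remaining subunit, *Idh3b*, averaged 0.20 over ratios of -0.01, 0.45 and 0.16, or 0.31 without replicate 1 and 0.08 without replicate 2. *Idh3a* exceeded *Idh3b* by 0.27, 0.33 and 0.23. *Idh2*, the NADP-dependent mitochondrial isocitrate dehydrogenase, had a negative mean. Its log2 intensity was 12.20, 11.96 and 12.85 in N1ICD-*mdx* muscles, against 12.56, 12.79 and 12.22 in *mdx* muscles, and it was chosen for these values after they were seen. The ratios were -0.36, -0.82 and 0.63, so the mean of -0.18 (standard error 0.30) was smaller than their SD of 0.744. It was 0.14 without replicate 2, and -0.59 without replicate 3, where *Idh2* was the 1 gene of the 31 at 1.5-fold and an unadjusted p under 0.05 with a negative ratio, against 0.81% of all genes.

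The 2-oxoglutarate dehydrogenase complex oxidizes 2-oxoglutarate to succinyl-CoA. Its core subunit *Dlst* (NM_030225) had log2 intensities of 12.51, 12.28 and 12.50 in N1ICD-*mdx* muscles, against 12.21, 11.93 and 12.23 in *mdx* muscles. Its 3 ratios of 0.29, 0.35 and 0.27 had the smallest SD of the 31 genes, 0.0388. Their mean was 0.31 (moderated standard error 0.08). *Dld*, the lipoamide dehydrogenase shared with the pyruvate complex, had 11.78, 11.56 and 11.64 in N1ICD-*mdx* muscles, against 11.51, 11.31 and 11.55 in *mdx* muscles. The groups lay just apart, with a ratio of 0.20 (standard error 0.09), and another probe of *Dld* had 0.36. *Ogdh*, the first subunit of the complex, had a ratio of 0.05, with -0.24, 0.26 and 0.12 on the arrays, and -0.06 without replicate 2. *Fh1*, fumarase, had ratios of 0.05, 0.42 and 0.02 and a mean of 0.16, or 0.03 without replicate 2. Of the 13 cycle enzymes, 12 had a positive ratio, against 49.1% of all genes. With median centering *Ogdh*, *Dld* and *Suclg2* did not. *Ogdh* was also negative with no background subtraction, an offset of 10 or without replicate 2, and *Suclg2* without replicate 2 or 3. On every array 7 of the 13 were positive, against 17.7% of all and 16.4% of equally bright genes.

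Of the enzymes of the malate-aspartate shuttle other than *Mdh2*, *Mdh1* (NM_008618), the cytosolic malate dehydrogenase, had the largest ratio. Its log2 intensity was 13.81, 13.72 and 13.64 in N1ICD-*mdx* muscles, against 13.24, 13.00 and 13.24 in *mdx* muscles. The groups did not overlap, and the log2 ratio was 0.56 (standard error 0.10, 1.48-fold), or 0.49 without replicate 2. *Got1*, the cytosolic aspartate aminotransferase, had 13.34, 13.76 and 13.75 in N1ICD-*mdx* muscles, against 13.52, 12.92 and 13.31 in *mdx* muscles. Replicate 1 ran against the others for *Got1*, with ratios of -0.18, 0.85 and 0.44 and a mean of 0.37 (standard error 0.22). That mean was 0.64 without replicate 1 and 0.13 without replicate 2. *Got2*, the mitochondrial aminotransferase, had -0.05, 0.45 and 0.17, with a mean of 0.19, and 0.31 without replicate 1 and 0.06 without replicate 2.

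*Mpc1* (NM_018819) and *Mpc2* encode the subunits of the mitochondrial pyruvate carrier. *Mpc1* had log2 intensities of 14.58, 14.82 and 14.76 in N1ICD-*mdx* muscles, against 14.14, 14.15 and 14.30 in *mdx* muscles. The groups did not overlap, and the ratio was 0.52 (standard error 0.10). A second *Mpc1* probe gave 0.06, 0.39 and 0.16 with a mean of 0.20, so the size differed between probes while the sign was the same on each array. *Mpc2* had -0.20, 0.43 and 0.20, a mean of 0.14, and 0.31 without replicate 1 and 0.00 without replicate 2. *Mpc1* exceeded *Mpc2* by 0.65, 0.25 and 0.26 on the arrays.

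In the pyruvate dehydrogenase complex, *Pdha1* (NM_008810), which encodes the E1α subunit that the kinases phosphorylate, had log2 intensities of 11.86, 12.06 and 12.16 in N1ICD-*mdx* muscles, against 11.70, 11.34 and 11.83 in *mdx* muscles. The lowest N1ICD-*mdx* muscle lay just above the highest *mdx* muscle, and the log2 ratio was 0.40 (standard error 0.14), with 0.24 without replicate 2. *Dlat*, the E2 core of the complex, had 10.65, 10.72 and 10.70 in N1ICD-*mdx* muscles, against 10.24, 9.65 and 10.62 in *mdx* muscles. The N1ICD-*mdx* muscles were close together and the *mdx* muscles were not. The *Dlat* ratio of 0.52 (standard error 0.22) was 0.24 without replicate 2 and 0.74 without replicate 3. *Pdhb*, the E1β subunit, had a ratio of 0.16, and 0.00 without replicate 2, and a second probe of it had 0.33, 0.66 and -1.03. *Pdhx*, which anchors the shared dehydrogenase to the complex, had 0.19, and 0.00 without replicate 2. All 4 genes of the complex had a positive mean ratio, against 49.1% of all genes. With median centering or array quality weights *Pdhb* and *Pdhx* did not, nor did *Pdhb* without replicate 2. On every array 2 of the 4 were positive, against the same 17.7% of all and 16.4% of equally bright genes.

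**Figure D4:**
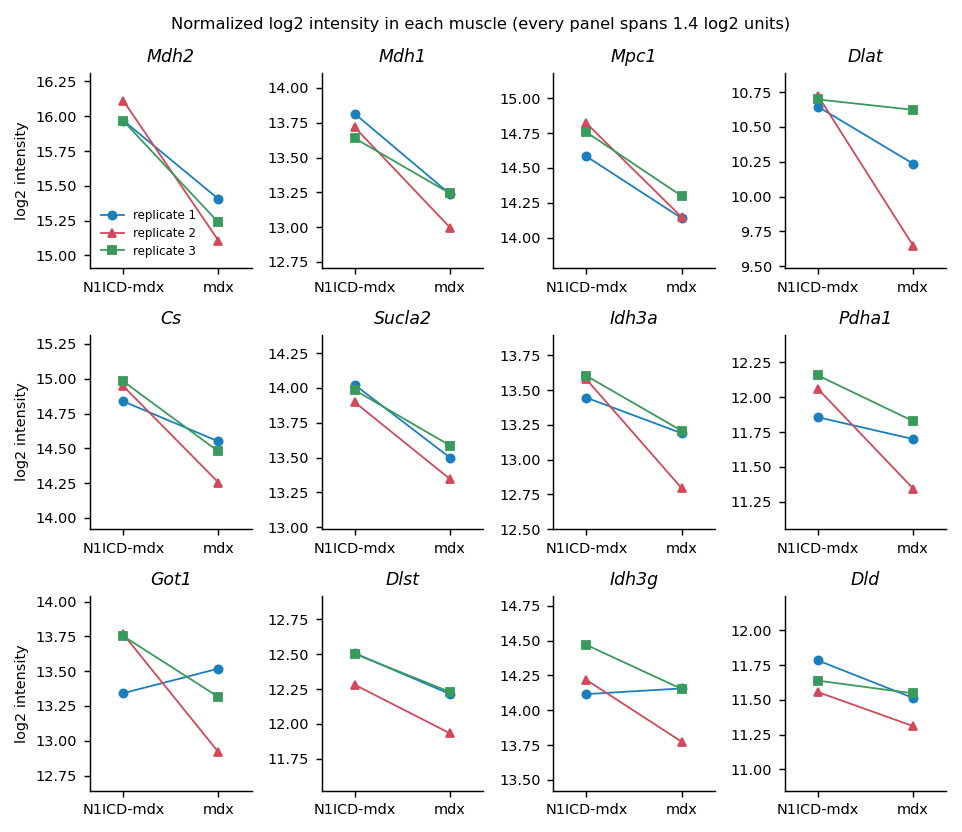
Normalized log2 intensity (y axis, each panel spanning 1.4 log2 units) in each N1ICD-*mdx* muscle (left) and *mdx* muscle (right) for the 12 genes of the largest absolute ratio, with a line joining the muscles of 1 array. These 12 genes were picked by ratio, which favors groups that lie apart, and the groups overlap for *Got1* and *Idh3g*.

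Other genes set the activity of the complex. The pyruvate dehydrogenase kinases *Pdk1*, *Pdk2*, *Pdk3* and *Pdk4* had mean log2 ratios of 0.06, 0.08, -0.01 and -0.02. *Pdk4* is the kinase that fasting and fatty acids induce in muscle, and its spread was the widest of the 31 genes, for which it is shown although it was chosen after its values were seen. Its log2 intensity was 11.05, 12.16 and 11.13 in N1ICD-*mdx* muscles, against 11.23, 10.53 and 12.63 in *mdx* muscles. The lowest and the highest of the 6 were both *mdx* muscles, and the ratios of -0.18, 1.63 and -1.50 had an SD of 1.57. The mean was 0.07, -0.84 and 0.73 without replicates 1, 2 and 3, and -1.07 with array quality weights. *Pdk1* and *Pdk2* had means of -0.02 and -0.05 without replicate 2. *Pdk3* was the 1 kinase with a negative ratio on replicate 2, at -0.50, against 0.28 and 0.17 on replicates 1 and 3, and had 0.23 without replicate 2. Of the phosphatases that reactivate the complex, *Pdp1* had -0.14, -0.02 and -0.33 with a mean of -0.16 (standard error 0.10), or -0.24 without replicate 2 and -0.08 without replicate 3. Its other probes had mean ratios of 0.01 and -0.10. *Pdp2*, the dimmest of the 31 at a log2 intensity of 6.86, had a mean of -0.07, with -0.21, -0.20 and 0.21 on the arrays.

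Pyruvate carboxylase (*Pc*, listed as *Pcx* in the RefSeq table), which refills the cycle with oxaloacetate, had ratios of -0.32, 0.57 and -0.19 and a mean of 0.02. The malic enzymes turn malate into pyruvate, *Me1* in the cytosol and *Me3* in mitochondria. *Me1* had -0.51, 0.87 and -0.38 with a mean of -0.01, and its other probes followed the same order with means of -0.05 and -0.21. *Me3* had -0.38, 0.55 and 0.05 with a mean of 0.07. These 3 genes were thus positive on replicate 2 and negative on replicate 1, and without replicate 2 their means were -0.25, -0.45 and -0.17.

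The spread among muscles was not the same in both groups, a difference that was not tested. The median SD over the 31 was 0.125 in N1ICD-*mdx* and 0.235 in *mdx* muscles, beside 0.130 and 0.155 for all genes.

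Other genes of the same pathways, 30 in all, were read from the same fit, and 24 of them were measured. None passed the adjusted threshold in limma, 4 had an unadjusted p under 0.05 with a positive ratio, against 4.06% of all genes, and 0 with a negative ratio, against 2.44%. The median of the 24 was 0.07, with 17 positive and 7 negative ratios. The lowest was -0.41, that of *Slc25a13*, a mitochondrial aspartate-glutamate carrier. *Slc25a13* had -0.07, -1.12 and -0.05 on replicates 1, 2 and 3, at a mean log2 intensity of 6.56. Among the 24 were *Sdhb* (0.56, standard error 0.11), the iron-sulfur subunit of succinate dehydrogenase, and *Ldha* (0.56, standard error 0.18), the lactate dehydrogenase of fast muscle. Also among the 24 was *Lias* (0.27), which makes the lipoyl cofactor of the dehydrogenase complexes. *Sdha*, the flavoprotein subunit of succinate dehydrogenase, had 0.21, its partners *Sdhc* and *Sdhd* had 0.09 and 0.07, and *Idh1*, the cytosolic isocitrate dehydrogenase, had -0.33, all with an unadjusted p over 0.05. *Slc25a13*, *Sdhc* and *Sdhd* were added after their values were seen. The count of 4 was 1, 5 and 2 without replicates 1, 2 and 3, against 1.58%, 8.36% and 1.15% of all genes. Of the other 6 genes, *Lipt2* had no named probe, and *Pdpr*, *Slc25a18*, *Dhtkd1*, *Pdha2* and *Got1l1* passed the background filter in neither group.

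Notch1 acts in the nucleus through the DNA-binding protein Rbpj, and estrogen-related receptors and Nrf1 are known regulators of mitochondrial genes, so short motifs of the 3 were looked for in promoters. RefSeq promoter sequences of GRCm38.p6, 250 bases before to 50 after each start, were found for 29 of the 31 genes. The letters GTGGGAA of Rbpj, on either strand, were present for 4 of the 29 (13.8%), against 7.25% of 27025 genes with a promoter. The letters AAGGTCA of the receptors were present for *Ogdh* and *Got1* (6.9%, against 5.38% of genes), and GCATGCG of Nrf1 for *Ogdh* and *Pdhb* (6.9%, against 4.01%). The 4 stretches with the Rbpj letters are shown because the mice differ in Notch1 activity. Each is read 5′ to 3′ on the strand of the gene and ends before the start, with the motif or its reverse complement in capitals, and no motif of the other 2 factors overlaps it. They lie at chr10:128337525-128337631 (+) for *Cs*, chrX:160138550-160138656 (-) for *Pdha1*, chr6:73248335-73248441 (+) for *Suclg1* and chr6:5496279-5496365 (-) for *Pdk4*.
Cs: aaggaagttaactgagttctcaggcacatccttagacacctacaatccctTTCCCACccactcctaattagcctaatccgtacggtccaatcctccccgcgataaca
Pdha1: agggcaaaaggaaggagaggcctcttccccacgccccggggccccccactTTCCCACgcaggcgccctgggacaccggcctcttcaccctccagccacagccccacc
Suclg1: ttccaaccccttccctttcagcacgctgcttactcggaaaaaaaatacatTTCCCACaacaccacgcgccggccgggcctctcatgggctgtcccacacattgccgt
Pdk4: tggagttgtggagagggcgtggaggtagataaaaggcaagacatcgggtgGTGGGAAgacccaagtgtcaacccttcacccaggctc
The motif started 152, 176, 120 and 37 bases before the start of *Cs*, *Pdha1*, *Suclg1* and *Pdk4*. The log2 ratios of these genes were 0.49, 0.40, 0.19 and -0.02, and *Mdh2*, *Mdh1*, *Mpc1*, *Dlat* and *Sucla2*, whose ratios were higher than that of *Pdha1*, had no such letters in this window. A match of letters describes the sequence and is no evidence of binding, and the window covers only the stretch next to the start.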

How the data were processed

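RNA of 6 TA muscles was hybridized to 3 two-color Agilent mouse arrays on 1 slide. Scans were read by the authors with Feature Extraction (11.5 in the labels, 11.5.1.1 in the headers). The deposited intensity of a spot is its median over pixels, with a local background and no normalization, and a second, processed intensity had been background-subtracted and dye-normalized by the software. Flags for background, saturation and outliers were also read, and no spot was saturated. In the Cy5 (N1ICD-*mdx*) channels 51.6% to 57.3% of spots were well above background, against 45.9% to 51.1% in the Cy3 (*mdx*) channels.

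Median intensities were corrected by normexp (offset 50) and normalized by loess within arrays in limma 3.58.1 under R 4.3.3, with control and outlier spots at weight 0 and outlier spots then left out. Intensities of single muscles were taken after quantile scaling of the mean log2 intensity between arrays. Of 55681 probes, 28026 received a gene name from the GRCm38.p6 RefSeq table, which gave names alone, and 17814 of these were kept. The 3 log2 ratios per gene were fitted by limma with an intercept. Precision is limited by having 3 arrays.

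The 31 genes and all lists were chosen with earlier results of these data known, so no test was run on a list. The text gives all 6 muscles for each gene with an unadjusted p under 0.05 or among the 12 largest absolute ratios, and *Idh2* and *Pdk4* were added after their values were seen. The values of 1 other pathway gene are not reported here. The procedure was tested on simulated data. The alternatives were processed intensities, no background subtraction, a normexp offset of 10, median centering, no filter or one on both channels, averages over probes, trend with robust variances, array quality weights, each replicate left out, the methods' t-test, a fit with no replicate block and subtraction of the median of 400 equally bright genes. Replicate numbers pair the muscles because both muscles of a number shared an array. After normalization, the deviations of paired muscles from their group means correlated at -0.0227, -0.294 and 0.334 across genes for replicates 1, 2 and 3. Between muscles of different arrays the range was wider. It ran from -0.635 (N1ICD-*mdx* 1 with *mdx* 3) to 0.502 (N1ICD-*mdx* 1 with *mdx* 2), so these correlations do not bear out the pairing.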

Additional observations from a re-analysis of the deposited data

How the results depend on the processing

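None of the 31 genes passed an adjusted p under 0.05 in any alternative. The median of the 31, 0.19, was smaller than the SD of its 3 array values (0.252), so a move below that SD does not show stability. The median moved by less than that SD in each alternative and lay between 0.01 with median centering and 0.34 with processed intensities. These 2 alternatives also placed the median of all genes at -0.18 and 0.23, so that the 31 lay above all genes by 0.19 and 0.11, and 23 and 25 of the 31 lay above that median. The smallest lead over all genes was 0.05, without replicate 2, where 20 of the 31 were positive and 18 lay above that median. With no replicate block, 8 of the 31 had an unadjusted p under 0.05 with a positive ratio (3.79% of all genes), as with the block, and with the methods' t-test 6 had (4.12%). Removing the block moved no count by over 1.5 times.

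With processed intensities, 5 of the 31 reached 1.5-fold and an unadjusted p under 0.05 with a positive ratio (6.53% of all genes), 17 were positive on every array (44.3%) and 0 negative on every array (3.78%), and 1 of the other TCA and shuttle genes reached 1.5-fold (6.53%). The log2 ratio became 0.033 for *Idh2*, 0.20 for *Pdk3*, 0.23 for *Pdk4*, 0.23 for *Pdp1*, 0.16 for *Pdp2* and 0.21 for *Me1*, where the median of all genes had shifted to 0.23. With median centering, 4 of the 31 had an unadjusted p under 0.05 with a positive ratio (0.934%) and 1 with a negative ratio (19.7%), 7 were positive (4.76%) and 2 negative (47.7%) on every array, and the muscles of 6 lay higher (1.9%) and of 2 lower (29.9%) without overlap. Of the other TCA and shuttle genes, against the same shares, 1 had a positive and 3 a negative ratio at an unadjusted p under 0.05. The ratio became -0.077 for *Ogdh*, -0.00031 for *Dld*, -0.21 for *Suclg2*, -0.0057 for *Pdhb*, -0.057 for *Pdhx*, -0.15 for *Pdk1*, -0.10 for *Pdk2*, -0.23 for *Pc* and -0.10 for *Me3*, where the median of all genes had shifted to -0.18. The change was not equal for all genes, as *Mdh2* went from 0.77 to 0.73 and *Pc* from 0.02 to -0.23. With array quality weights (1.1, 0.24 and 3.78 for replicates 1 to 3), 3 of the 31 had an unadjusted p under 0.05 with a negative ratio (10.4%), 1 of them at 1.5-fold (0.657%), and 1 of the other genes had such a p with a negative ratio. The ratio became 0.35 for *Idh2*, -0.061 for *Pdhb*, -0.0049 for *Pdhx*, -0.0074 for *Pdk1*, 0.16 for *Pdk3*, 0.10 for *Pdp2*, -0.18 for *Pc* and -0.021 for *Me3*. The ratio of *Ogdh* was -0.00079 with no background subtraction, -0.0043 with an offset of 10 and -0.017 less the median of its 400 neighbors. Less that median, the ratio was 0.018 for *Pdk3*, 0.0077 for *Pdk4* and 0.015 for *Me1*. The count of 4 among the other TCA and shuttle genes was 2 with no background subtraction (3.89% of all genes), 1 with an offset of 10 (3.76%) and 2 with trend and robust variances (2.5%). With the mean over probes 0 of the 31 were negative on every array (16.9%). The causes of these changes were not tested. The signal stood least above background for *Pdp2*, *Pdk3*, *Pdk1* and *Suclg2*, with mean log2 intensities of 6.86, 7.06, 7.47 and 8.02.

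Leaving out 1 replicate at a time gave 1 to 4 of the 31 at 1.5-fold with a positive ratio (0.693% to 0.89% of all genes) and 0 to 1 with a negative ratio (0.547% to 0.81%). At an unadjusted p under 0.05 it gave 5 to 9 with a positive (1.15% to 8.36%) and 0 to 4 with a negative ratio (1.01% to 7.09%). On both remaining arrays 12 to 21 were positive (25.7% to 31.7% of all genes) and 1 to 5 negative (24.3% to 30.6%), and 11 to 16 lay higher (17.2% to 20.5%) and 1 to 2 lower (17.6% to 20%) without overlap. Of the 24 other genes, against these same shares, 0 to 1 reached 1.5-fold with a positive ratio, and 1 to 5 had a positive and 0 to 1 a negative ratio at an unadjusted p under 0.05. The ratio ran from -0.59 to 0.14 for *Idh2*, -0.058 to 0.19 for *Ogdh*, -0.11 to 0.19 for *Suclg2*, -0.0049 to 0.31 for *Pdhb*, -0.018 to 0.092 for *Pdk1*, -0.052 to 0.28 for *Pdk2*, -0.16 to 0.23 for *Pdk3*, -0.84 to 0.73 for *Pdk4*, -0.21 to 0.0057 for *Pdp2*, -0.25 to 0.19 for *Pc*, -0.0021 to 0.31 for *Mpc2*, -0.45 to 0.24 for *Me1* and -0.17 to 0.30 for *Me3*.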
